A study of Mus musculus with 11 samples.

Results

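The genes described here build the entry route of the secretory pathway in the endoplasmic reticulum (ER). They comprise 38 named mouse genes of the translocon, signal recognition, signal peptidase, oligosaccharyltransferase and ER folding machinery, chosen by name among 21631 protein-coding genes on chromosomes 1 to 19 and X, and all 38 were found in the gene table. A gene was counted for a list of binding sites when a peak had at least 1 base within 1 kb of either of its ends, and the other 21593 protein-coding genes served as the comparison. The sites were mapped by CUT&RUN, in which antibody-bound chromatin is cut loose by a tethered nuclease and its DNA is sequenced. The 11 libraries, 1 per target and line, came from untreated cultures of M00002 and M00001, mouse tumour-derived lines grown with bFGF and EGF. Both lines carry an HA-tagged construct labelled CRfus1, taken here as the ZFTA-RELA fusion of the series title. From M00002 there are HA, p65, H3K27ac with antibodies ac4729 and ac647, and IgG. From M00001 there are HA, Cbp, p300, Rpb1 with the antibodies labelled S2 and S5, and IgG. The titles of Cbp, p300, S2 and S5 share a numeric mark, which is missing from the M00001 titles for HA and IgG. The labels do not explain it, so within M00001 target and mark cannot be told apart. No line without the fusion enters, each line carries a single mouse identifier, and what drives the construct and whether a line is 1 clone are not given in the sources used here.

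A protein bound for secretion or for a membrane carries a signal sequence that the signal recognition particle binds as it leaves the ribosome. The particle docks at its receptor on the ER, the chain passes through the Sec61 channel, signal peptidase removes the signal, and the oligosaccharyltransferase attaches a preformed glycan to asparagines. Chaperones and disulfide isomerases of the lumen then fold the chain. The genes of the lumenal chaperones are classic targets of the unfolded protein response, in which ATF6 and XBP1 act with NF-Y at ER stress response elements in promoters. The fusion under study joins ZFTA to RELA, the gene of the NF-kappaB subunit p65, and is the main oncogenic fusion of supratentorial ependymoma.

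The promoters below are shown because they hold an ER stress response element, a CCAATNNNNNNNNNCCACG match on either strand, or, for Ddost, because the gene had the highest HA fold enrichment of the 38 genes in both lines. They run 5' to 3' on the gene's strand over the 250 bases before the start of transcription, from RefSeq on GRCm38.p6, the assembly behind mm10. Capitals mark the element, which reads as its reverse complement where it lies on the opposite strand.
Hspa5, chr2:34771840-34772089, plus strand: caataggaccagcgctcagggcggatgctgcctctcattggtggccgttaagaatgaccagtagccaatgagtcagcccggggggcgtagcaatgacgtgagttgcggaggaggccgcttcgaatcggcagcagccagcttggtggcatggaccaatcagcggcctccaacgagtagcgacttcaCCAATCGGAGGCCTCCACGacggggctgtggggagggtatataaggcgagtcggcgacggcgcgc
Hsp90b1, chr10:86705445-86705694, minus strand: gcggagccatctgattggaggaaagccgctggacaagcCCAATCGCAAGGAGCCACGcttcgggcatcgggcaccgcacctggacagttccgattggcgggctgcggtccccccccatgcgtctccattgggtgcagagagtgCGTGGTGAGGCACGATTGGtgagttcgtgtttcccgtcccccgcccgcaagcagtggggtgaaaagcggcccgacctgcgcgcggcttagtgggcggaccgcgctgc
Calr, chr8:84846932-84847181, minus strand: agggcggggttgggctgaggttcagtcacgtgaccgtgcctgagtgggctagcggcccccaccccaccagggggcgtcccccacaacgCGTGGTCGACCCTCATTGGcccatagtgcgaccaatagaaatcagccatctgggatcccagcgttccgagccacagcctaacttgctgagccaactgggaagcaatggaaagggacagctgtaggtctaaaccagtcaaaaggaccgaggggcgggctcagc
Canx, chr11:50325674-50325923, minus strand: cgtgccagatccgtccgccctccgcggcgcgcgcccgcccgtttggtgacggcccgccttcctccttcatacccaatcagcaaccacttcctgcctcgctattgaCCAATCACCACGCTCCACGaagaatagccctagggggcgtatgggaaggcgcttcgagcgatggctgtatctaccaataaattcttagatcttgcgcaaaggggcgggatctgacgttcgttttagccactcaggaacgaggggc
Pdia6, chr12:17266339-17266588, plus strand: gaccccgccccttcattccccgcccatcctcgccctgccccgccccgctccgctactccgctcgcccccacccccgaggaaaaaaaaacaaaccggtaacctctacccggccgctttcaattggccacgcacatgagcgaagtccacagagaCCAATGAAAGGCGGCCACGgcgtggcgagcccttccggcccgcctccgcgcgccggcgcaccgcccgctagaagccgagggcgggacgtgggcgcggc
Ddost, chr4:138304488-138304737, plus strand: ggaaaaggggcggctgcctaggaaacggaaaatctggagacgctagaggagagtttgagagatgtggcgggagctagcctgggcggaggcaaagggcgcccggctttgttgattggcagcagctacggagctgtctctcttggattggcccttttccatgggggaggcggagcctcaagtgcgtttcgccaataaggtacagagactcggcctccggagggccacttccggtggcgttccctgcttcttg
Among the 30 genes with an entry in the promoter table, 5 held the element (Hspa5, Hsp90b1, Calr, Canx and Pdia6), 16.7% beside 0.139% of 17244 other genes, over 250 bases before to 50 after the start. Hsp90b1 held it at 2 places, on opposite strands. The 38 genes were chosen by name and include lumenal chaperones, known beforehand as targets of the response through this element. The difference in shares is therefore no independent result. The ER stress response element II, given by name alone, was found at 0 of 30 and at 0.0638% of other genes. The NF-kappaB consensus motif was found at 0 of the 30 promoters and at 7.25% of the others. With only 30 promoters, neither count of 0 can be told apart from the share of the others. A match describes letters in this window and no binding. Both strands were searched, each motif was counted by itself, and no match says only that these letters are not in this window.

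The lists held between 1592 peaks (IgG, M00001) and 29937 (HA, M00002) on the chromosomes used, and HA of M00001 held 8504. Read depth is unknown, because the files hold no read counts, so a longer list is no measure of more binding. Among cell type markers, H3K27ac with both antibodies lay near an end of 4 of 8 radial glia genes and 0 of 5 neuron genes. It lay at 1 of 5 microglia and leukocyte genes and 1 of 4 endothelium genes, beside 12.1% of genes outside the 38. Rpb1 with S2 did not set radial glia apart from neuron genes, at 3 of 8 and 2 of 5. S2 lay at 1 of 5 microglia and leukocyte genes and 0 of 4 endothelium genes, beside 40.7% of genes outside the 38. The marker groups are small, and cell type was not tested. Fold enrichment is the authors' deposited value at a peak's summit over the peak caller's background. It is used here within a list only, with its rank percentile, the share of the list's peaks at or below it. No share was tested, because each target has 1 library per line and the genes were named with earlier results of these data known.

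HA lay near an end of 21 of the 38 ER genes in M00002, 55.3% beside 25.3% of all other protein-coding genes, and of 11 in M00001, 28.9% beside 10.2%. All 11 were among the 21. HA of both lines was thus found at 28.9% of the ER genes and 8.97% of the others. The HA peaks of the lines overlapped each other at each of the 11. Overlapping HA peaks lay near an end of 8.34% of the others, so most other genes with HA of both lines showed this too. The other lists of M00002 gave p65 at 15 ER genes (39.5% beside 15.3%), H3K27ac at 34 with ac4729 (89.5% beside 32.3%) and at 11 with ac647 (28.9% beside 13.1%). In M00001, Rpb1 lay at 36 with S2 (94.7% beside 40.7%) and at 24 with S5 (63.2% beside 20.9%). The coactivator p300 was found at 10 (26.3% beside 6.63%) and the related Cbp at 2 (5.26% beside 3.52%). IgG was found at 0 ER genes in either line, beside 1.44% of other genes in M00002 and 0.421% in M00001. A count of 0 among 38 allows a share of up to 7.89%, counting error only, so the IgG shares of ER and other genes cannot be told apart.

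**Figure D1:**
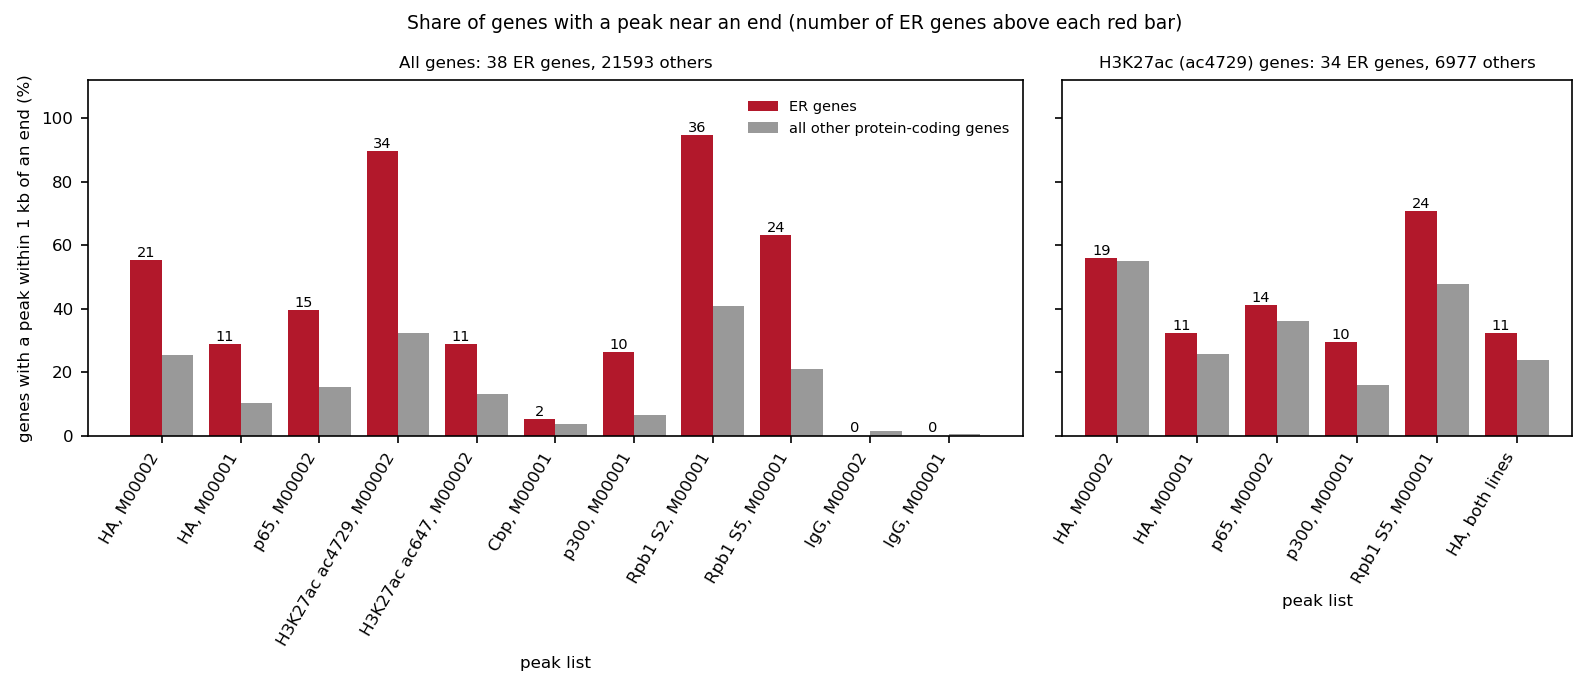
Share of genes (%, vertical axis) with a peak within 1 kb of an end, for ER genes (red, left bar, with their number above) and all other protein-coding genes (grey, right bar), by list; left, all genes, and right, genes with an ac4729 peak. HA of M00002 stands at 55.3% beside 25.3% on the left and at 55.9% beside 54.9% on the right.

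ER genes are widely transcribed, and 34 of them carried H3K27ac with ac4729. Among genes with that mark near an end, HA of M00002 lay at 19 of 34 ER genes, 55.9% beside 54.9% of 6977 other genes, so its share was near the background. For p65 the shares were 41.2% and 36.1%, for HA of M00001 32.4% and 25.7%, and for HA of both lines 32.4% and 23.7%. S5 (70.6% and 47.9%) and p300 (29.4% and 15.9%) stood farther apart, though only 1 of the 10 p300 peaks had a −log10 q of at least 5. With S2 required as well, HA of M00002 was at 57.6% of 33 ER genes and 59.5% of 5518 others, and HA of both lines at 33.3% and 27.3%. Among genes with H3K27ac of both antibodies (11 ER genes, 28.9% beside 12.1%), HA of both lines was at 7 ER genes, 63.6% beside 37.2%. Among genes with S2 and S5 (23 ER genes, 60.5% beside 19.1%), it was at 9, 39.1% beside 30.1%. The backgrounds of ac4729 alone and with S2 were added after the data had been seen. They mix the lines, because H3K27ac is from M00002 and S2, S5 and p300 are from M00001.

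**Figure D2:**
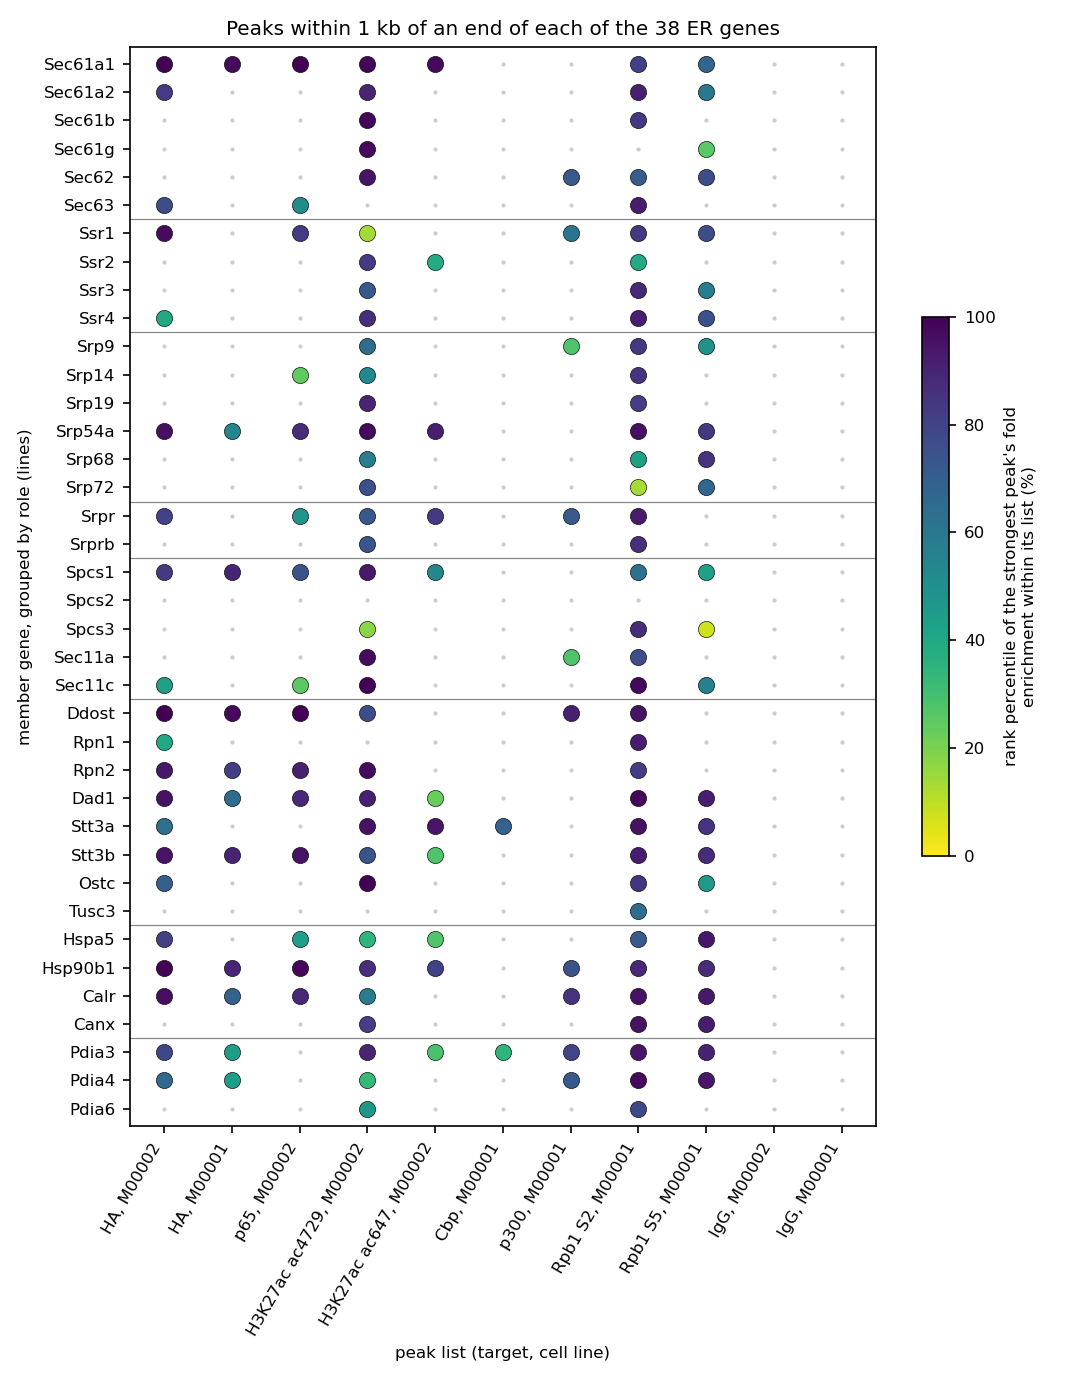
The 38 ER genes (rows, grouped by role) by the 11 lists (columns); a filled circle is a peak within 1 kb of an end, coloured by the rank percentile (%) of its fold enrichment within the list, and a grey dot is no peak. The ac4729 and S2 columns are filled at 34 and 36 genes, HA of M00001 at 11, and both IgG columns are empty.

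In the translocon, Sec61a1, which encodes the channel subunit, was the only gene of 6 with HA in both lines. Its fold enrichment was 25.8 for HA in M00002 and 14.1 in M00001, 25.6 for p65, 8.39 for ac4729, 10.4 for ac647, 5.62 for S2 and 4.65 for S5. Cbp, p300 and IgG had no peak there. The HA summits lay 259 and 171 bp outside the higher-coordinate end of the gene (chromosome 6, 88503607 to 88518800), at 88518867 to 88519194 in M00002 and 88518759 to 88519196 in M00001. HA of M00002 alone lay at Sec61a2, the second channel gene, with a fold of 8.96 at a site shared with Dhtkd1, and at Sec63, which encodes a partner that recruits Hspa5 to the channel, with 7.58. Sec61b, Sec61g and Sec62, for the small channel subunits and a further partner, had H3K27ac with ac4729 at folds of 8.07, 7.47 and 6.51 and no HA or p65. At Sec61g S2 had no peak and S5 had a fold of 3.37 with a −log10 q of 0.900.

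The translocon-associated protein complex, Ssr1 to Ssr4, had HA of M00001 at 0 of 4 genes. Ssr1 stood out among the genes without HA in M00001, with an HA fold of 17.3 in M00002 (rank percentile 97.0) and a p65 fold of 8.66. Ssr4 had HA in M00002 at a fold of 3.74 and a −log10 q of 1.46, a weak peak shared with Idh3g. Ssr2 and Ssr3 had ac4729 and S2 and neither HA nor p65.

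Of the signal recognition particle, Srp54a, for the GTPase subunit that binds the signal, had HA in both lines and the other 5 genes had it in neither. Its folds were 15.9 for HA in M00002, 4.48 for HA in M00001, 9.98 for p65, 7.67 for ac4729, 6.93 for ac647, 8.29 for S2 and 5.77 for S5. The copies Srp54b and Srp54c lie beside it on chromosome 12 and were called in the same 7 lists, so reads that match several copies make these values uncertain. The peak also lies within 1 kb of 2700097O09Rik. All 6 particle genes (Srp9, Srp14, Srp19, Srp54a, Srp68 and Srp72) had ac4729 and S2. Srp14 was the 1 gene of the 38 with p65 (fold 3.83) and no HA. Of the receptor genes, Srpr had HA in M00002 (8.23) and p65 (4.74) at a site shared with Foxred1, and Srprb had neither.

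Of the signal peptidase, Spcs1, a small accessory subunit, had HA in both lines, at a site shared with Glt8d1. The folds were 9.01 for HA in M00002, 9.17 for HA in M00001, 7.15 for p65, 6.26 for ac4729, 4.26 for ac647, 4.42 for S2 and 3.79 for S5. Sec11c, a catalytic subunit, had HA in M00002 only, at a fold of 4.23, beside an ac4729 fold of 10.5 and an S2 fold of 9.17. Sec11a, the other catalytic subunit, and Spcs3 had no HA, with ac4729 at 7.06 and 3.24. Spcs2 had no peak of any list near an end.

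The oligosaccharyltransferase had HA in M00002 at 7 of 8 genes and in both lines at 4, Ddost, Rpn2, Dad1 and Stt3b, beside 25.3% and 8.97% of all genes outside the 38, or 54.9% and 23.7% of those with ac4729. The 4 further subunit genes of the enzyme, outside the 38, had HA in M00002 at 1 and in both lines at 0. Ddost, which encodes a non-catalytic subunit, had folds of 29.9 for HA in M00002, 14.9 for HA in M00001, 25.3 for p65, 4.86 for ac4729, 6.09 for p300 and 8.01 for S2, and no peak of ac647, Cbp, S5 or IgG. Its HA peak had the same bounds in both lines (chromosome 4, 138304532 to 138304823), and the p65 peak (138304534 to 138304822) differed from it by 2 bp at one side and 1 bp at the other. The HA, p65 and p300 peaks all crossed the start of transcription, while the ac4729 peaks lay to either side of it.

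Stt3b, a catalytic subunit, had folds of 15.2 for HA in M00002, 9.30 for HA in M00001, 13.8 for p65, 4.71 for ac4729, 3.65 for ac647, 7.19 for S2 and 6.19 for S5. Stt3a, the other catalytic subunit, had HA in M00002 only, at 5.83, with no p65, an ac647 fold of 7.98 and a weak Cbp peak (3.77, −log10 q 1.60). At Dad1 the folds were 15.4 for HA in M00002, 5.38 for HA in M00001, 10.4 for p65, 5.87 for ac4729, 3.47 for ac647, 9.42 for S2 and 6.83 for S5. The Dad1 site was shared with Abhd4, and its S2 fold was the highest of the 38 genes. At Rpn2 they were 14.0, 7.19, 11.2, 7.12 and 5.72 for HA in M00002, HA in M00001, p65, ac4729 and S2, with no ac647, p300 or S5, at a site shared with Mroh8. Ostc had the highest ac4729 fold of the 38, 14.3, with HA in M00002 at 6.56. Rpn1, a further non-catalytic subunit, had a weak HA peak of M00002 (3.74, −log10 q 1.46) and S2 peaks at its start (6.11) and 938 bp past its far end (7.15), and no H3K27ac, p65 or S5. Tusc3 had an S2 peak alone, with a fold of 4.48.

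**Figure D3:**
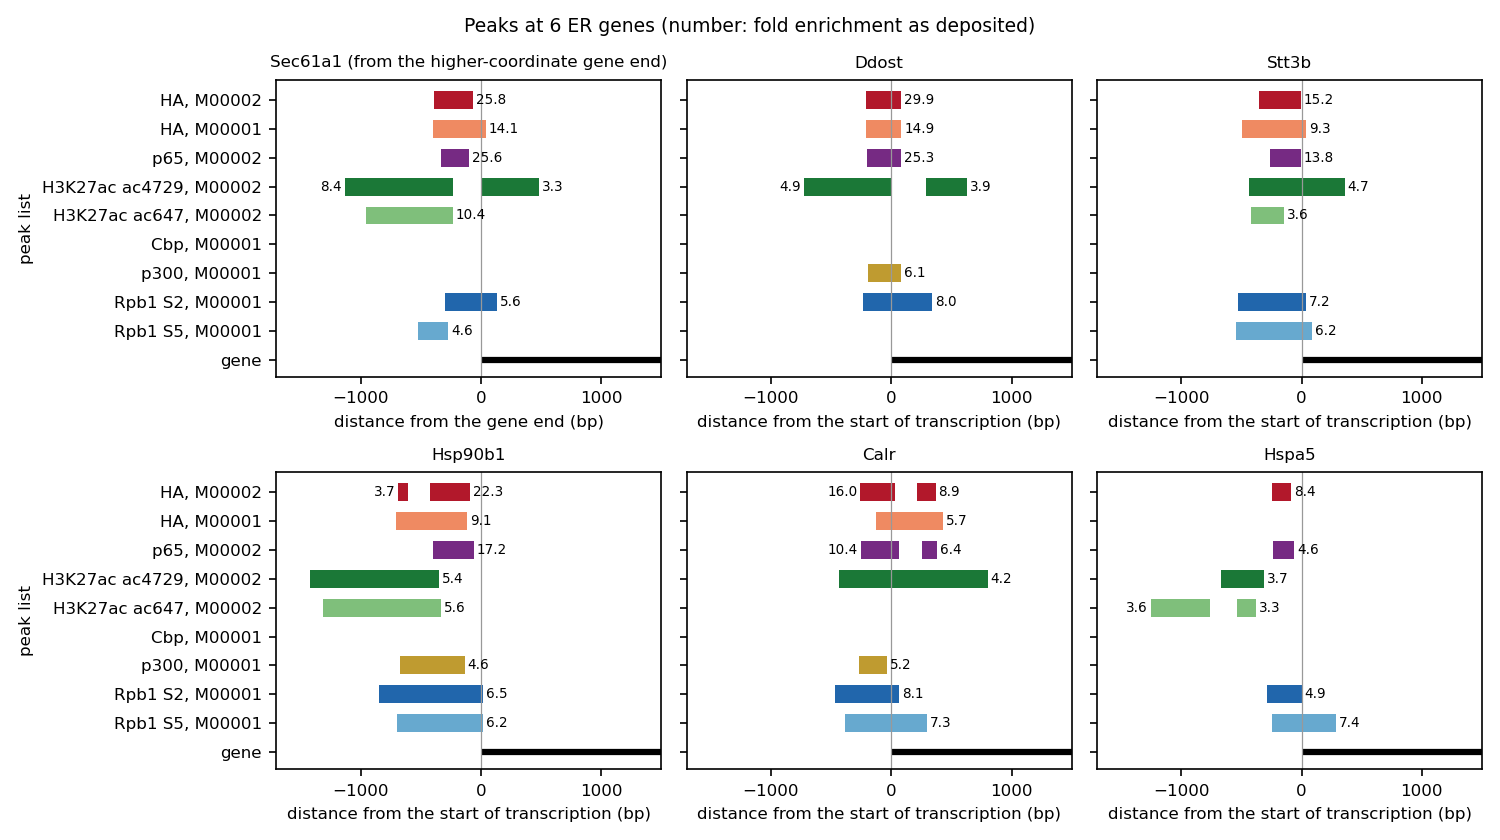
Peaks of 9 lists at 6 ER genes, drawn against the distance in bp from the start of transcription (for Sec61a1, whose strand was not used, from the higher-coordinate gene end, with the gene drawn to the right); bars are peaks, numbers their fold enrichment, and the black line the gene. HA and p65 bars lie close to the zero line, and Ddost (4.9 and 3.9) and Sec61a1 (8.4 and 3.3) each have 2 ac4729 bars, with summits on both sides of the HA summits.

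Of the 4 chaperone genes, 3 had HA in M00002, and Hsp90b1 and Calr had it in both lines. All 4 had ac4729. The shares beside them are 25.3% and 8.97% of all genes outside the 38, or 54.9% and 23.7% of those with ac4729. The same shares stand beside the counts of the other roles, and a group this small cannot be set apart from them. At Hsp90b1, the ER member of the HSP90 family, the folds were 22.3 for HA in M00002, 9.07 for HA in M00001, 17.2 for p65, 5.40 for ac4729, 5.64 for ac647, 4.61 for p300, 6.48 for S2 and 6.19 for S5, at a site shared with Ttc41. At Calr, a lectin chaperone that binds glycoproteins, they were 16.0 for HA in M00002, 5.66 for HA in M00001, 10.4 for p65, 4.23 for ac4729, 5.17 for p300, 8.06 for S2 and 7.32 for S5. Calr had a second HA peak in M00002 (8.92) and a second p65 peak (6.38), with summits 272 and 276 bp past the start. Hspa5, the main ER HSP70 known as BiP, had HA in M00002 (8.43) and p65 (4.57) and no HA in M00001. Canx, the membrane-bound partner of Calr, had no HA within 1 kb, and its nearest HA peak of M00002 lay 1360 bp from an end, while ac4729 (5.09), S2 (8.0) and S5 (6.87) were present.

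Among the disulfide isomerases, Pdia3 and Pdia4 had HA in both lines without p65. Their HA peaks in M00001 were weak, each with a fold of 3.98 and a −log10 q of 1.52. At Pdia3, the partner of Calr and Canx, the folds were 7.97 for HA in M00002, 5.75 for ac4729, 3.68 for ac647, 3.09 for Cbp (weak, with a −log10 q of 0.41), 4.8 for p300, 7.83 for S2 and 6.66 for S5, at a site shared with Catsper2. At Pdia4 they were 5.97 for HA in M00002, 3.62 for ac4729, 4.43 for p300, 9.12 for S2 and 7.41 for S5. Pdia6 had ac4729 and S2 and no HA.

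A relation between HA and the ER stress response element was not tested, and genes with the element were found both with and without HA. Of the 5 genes with the element, Hsp90b1 and Calr had HA in both lines, Hspa5 in M00002, and Canx and Pdia6 in neither. The HA peak of M00002 overlapped both elements of Hsp90b1 and that of Calr, and it ended before that of Hspa5, which the p65 peak overlapped by its edge. S2 peaks overlapped all 6 matches of the 5 genes, and S5 peaks overlapped those of Hspa5, Hsp90b1, Calr and Canx. In the promoter table, 18 of the 30 genes had HA in M00002 by the rule on gene ends, and 15 of these held none of the 3 motifs. That rule leaves out Spcs2, whose promoter holds an HA peak of M00002.

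Genes with strong HA in M00002 mostly had HA in M00001 too, among ER genes and among all others. Of the 9 ER genes with a peak in the top 10% by fold of the M00002 list (23.7% beside 3.89% of other genes), 8 had HA in M00001, and the exception was Ssr1. Of the 12 below the top 10% by fold, 3 had it (Spcs1, Pdia3 and Pdia4). Other genes showed the same division, with HA of M00001 at 79.1% of 839 genes in the top 10% by fold and 27.6% of 4618 below it. Over all genes with HA in M00002, HA of M00001 was at 11 of 21 ER genes, 52.4% beside 35.5%. In M00001, 4 ER genes were in the top 10% by fold (10.5% beside 1.20%): Sec61a1, Ddost, Stt3b and Spcs1. Outside HA, S2 had 15 ER genes in the top 10% of its list (39.5% beside 9.15%), ac4729 13 (34.2% beside 7.51%), S5 6 (15.8% beside 2.89%) and p65 5 (13.2% beside 2.02%). The counts were small for ac647 (3, beside 1.40% of other genes), p300 (1, beside 0.394%) and Cbp (0, beside 0.153%). HA folds ran from 3.74 to 29.9 in M00002 and from 3.98 to 14.9 in M00001. For HA, the M00002 list is marked 120 bp, as its p65 list is, and the M00001 list is not. The labels do not say what the mark means, so line and mark cannot be told apart.

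**Figure D4:**
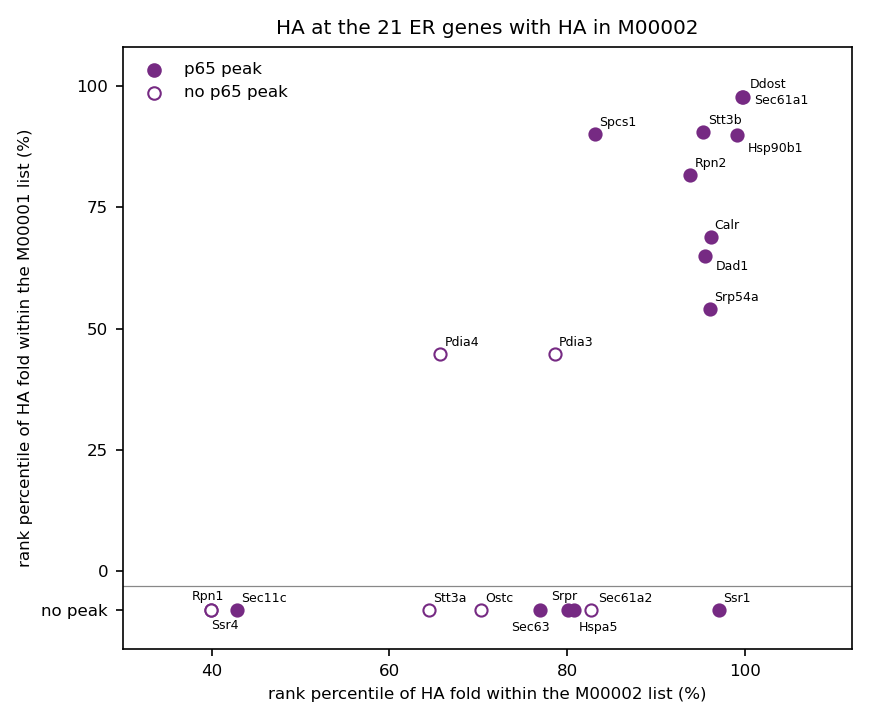
Rank percentile (%) of the strongest HA peak near each ER gene within the M00002 list (horizontal) and within the M00001 list (vertical; the lowest row is no peak), for the 21 genes with HA in M00002; filled points have a p65 peak. Ddost and Sec61a1 lie at the upper right, and Ssr1 is the gene at 97.0% without HA in M00001.

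Only peaks within 1 kb of a gene end were counted, so closeness to the start is in part set by that rule. Among these peaks, HA summits lay close to the start of transcription. Medians and shares within 300 bp were not computed for other genes. For genes in the promoter table, 20 of 21 HA summits in M00002 and 10 of 10 in M00001 were within 300 bp of the start, with medians of −58 and −36 bp. The remaining summit, a weaker second peak at Hsp90b1, lay 616 bp before the start. p65 summits had a median of −79 bp, with 14 of 15 within 300 bp, and p300 summits −62 bp, with 8 of 10. H3K27ac lay farther out: with ac4729, 14 of 30 summits were within 300 bp, and they ran from −1043 to 1092 bp. Over the promoter table, an HA summit of M00002 lay within 500 bp of a start at 63.3% of 30 ER genes and 22.2% of 17244 others, and one of M00001 at 36.7% and 9.13%, which counts Spcs2. Both HA lists did so at 36.7% and 8.03%. For p65 the shares were 43.3% and 13.2%, for p300 33.3% and 6.14%, for S5 66.7% and 20.6%, and for S2 96.7% and 39.7%. H3K27ac summits did so at 24 ER genes with ac4729 (beside 26.4% of others) and 8 with ac647 (26.7% beside 9.59%), Cbp at 2 (6.67% beside 2.82%), and IgG at 0 beside 0.615% in M00002 and 0.191% in M00001.

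**Figure D5:**
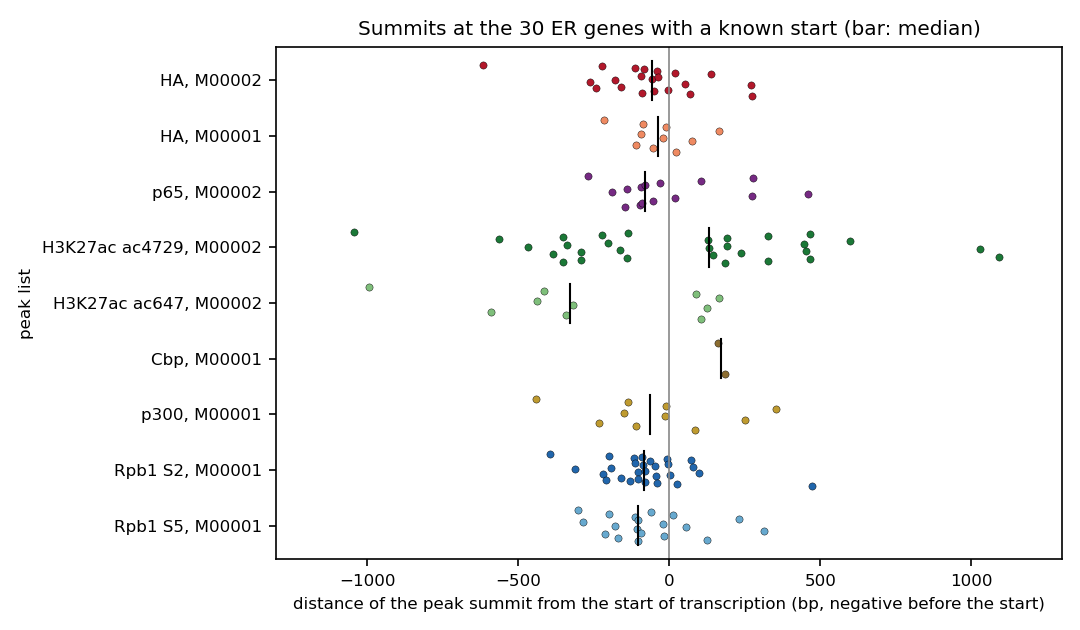
Distance in bp of each peak summit from the start of transcription (horizontal, negative before the start) for the 30 ER genes with a known start, by list (vertical); each point is a peak, the black bar the median, and the S2 summit at the far end of Rpn1 lies outside the axis. HA, p65, S2 and S5 points crowd just before the start, with medians between −103 and −36 bp, and ac4729 points lie on both sides of it.

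Both p65 and ac647 were more frequent at ER genes bound by HA in both lines than at those bound in neither, and the same held for all other genes. At the 11 ER genes with HA in both lines, p65 was present at 9 (81.8% beside 82.3% of 1937 other genes of that kind), ac4729 at 11 (beside 85.3%), S2 at 11 (beside 90.3%), S5 at 9 (81.8% beside 65.8%) and p300 at 5 (45.5% beside 31.9%). All 9 with p65 as well made up 23.7% of the 38, beside 7.38% of other genes. Over all genes with HA in M00002, p65 was at 14 of 21 ER genes, 66.7% beside 52.9%. At the 10 with HA in M00002 alone (26.3% beside 16.3%), p65 was at 5 (50.0% beside 36.7%), ac4729 at 8 (beside 61.8%) and p300 at 2 (beside 12.2%). p300 was at 5 of the 11 ER genes with HA in M00001 (beside 29.7% of other such genes) and at 7 of the 24 with S5 (29.2% beside 24.6%), and with Cbp at 1, beside 1.38% of all other genes. The 17 ER genes without HA in either line (44.7% beside 73.5%) had p65 at 1 (5.88% beside 2.49% of other genes without HA), p300 at 3 (17.6% beside 2.18%), ac4729 at 15 (88.2% beside 19%), S2 at 15 (88.2% beside 27.1%) and S5 at 8 (47.1% beside 10.5%). Of the 3 p300 peaks, those of Srp9 and Sec11a were weak, each with a −log10 q of 0.78. The 17 genes were Sec61b, Sec61g, Sec62, Ssr2, Ssr3, Srp9, Srp14, Srp19, Srp68, Srp72, Srprb, Spcs2, Spcs3, Sec11a, Tusc3, Canx and Pdia6. Spcs2 is among them by the rule on gene ends, though HA peaks of both lines (folds of 4.48 in M00002 and 3.48 in M00001) lay at the start of transcription that the promoter table gives inside its gene interval. For the 17 genes, the nearest HA peak of M00002 lay 1360 to 50899 bp from a gene end, with a median of 10944 bp. ac647 lay at 7 of the 11 (63.6% beside 52.1%), 3 of the 10 (beside 26.7%) and 1 of the 17 (5.88% beside 5.13%). In the 14 ER genes with both, the p65 peak overlapped the HA peak of M00002 at each. This overlap was not counted for other genes, so it is not known to be particular to ER genes. RELA sequence is present in the fusion as well as in endogenous p65, and p65 signal from these sources cannot be told apart. S2 peaks covered a median of 1.08% of the length of the ER genes, and at most 14.1%, at the short Spcs1. For other genes, of which 40.7% had S2 near an end, the median was 0% and the highest 100%.

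The 75 further genes of the pathway, in 6 lists, had HA in M00002 at 40 (53.3%) and in both lines at 10 (13.3%). All genes outside the 38, the background for every list here, had HA in M00002 at 25.3%, in M00001 at 10.2%, in both lines at 8.97% and S5 at 20.9%. However, ac4729 was at 70.7% of the 75, beside 32.3% of genes outside the 38. Those outside the 38 with ac4729 had HA in M00002 at 54.9% and in both lines at 23.7%. The shares of the 75, not restricted to that mark, were no higher than these. HA of M00002 was at 15 of 20 genes of the unfolded protein response, where S5 was at 18 and HA of both lines at 4. By mean HA rank percentile over both lines the first was Syvn1, a ubiquitin ligase of ER-associated degradation, with HA folds of 27.5 in M00002 and 12.0 in M00001 and p65 at 25.02. Derl1, of the same degradation route, had 20.0, 12.6 and 16.3 for HA in M00002, HA in M00001 and p65, and Dnajc3, a cochaperone, 20.2, 5.41 and 11.1. In glycan assembly and trimming, HA was at 10 of 17 in M00002 and at 2 in both lines, Dpagt1 (6.20 in M00002 and 6.22 in M00001) and Alg14 (7.06 and 3.48). Of the COPII coat, 5 of 12 had HA in each line and 2 in both, Sec16a (19.6 and 10.7) and Sec24c (9.06 and 4.47). Membrane insertion had 5 of 12 in M00002, with Emc4 in both lines (9.92 and 5.94), and oxidative folding 4 of 10, with Ero1b in both (9.21 and 4.95).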

How the data were processed

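The deposited file of each of the 11 libraries is a list of peaks of that library alone. MACS2, Bowtie2 2.3.5.1, Trim Galore, deepTools and FastQC are named, with build mm10, per the submitters' processing notes. No source used here gives the settings or the control of peak calling. The deposited columns hold a score, a fold enrichment (a ratio), a −log10 p-value and a −log10 q-value for each peak. The score was not used. Python 3.11.15 with pandas 2.3.3 computed everything here. Peaks on chromosomes 1 to 19 and X were matched to gene ends and promoters of GRCm38.p6, whose promoter table gave the start of transcription for 30 of the 38 genes; older symbols were matched through its synonyms. Matching was tested on simulated data. Of the M00002 lists, those of HA and p65 are named with 120 bp, unlike the others. Nothing was tested for significance: counts stand beside the share of all other protein-coding genes. The 38 genes and the lists were chosen with earlier results of these data known. Values in every list were given for genes with HA in both lines, and HA and p65 values for up to 3 genes of each further pathway list, by mean HA rank percentile. Alternatives were a 5 kb window, only peaks at a −log10 q of 5 or more, only the strongest 2000 of a list, summits in place of peaks, peaks that overlap IgG removed, overlapping HA sites, each HA library alone, the start of transcription alone and acetylated genes as background. Neighbouring genes can share a peak.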

Additional observations from a re-analysis of the deposited data

How the results depend on the processing

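Of 76 recomputed counts, 57 stayed within 1.5 times the count given. That tally includes counts with little or no room to move. IgG was at 0 ER genes at the outset, so removal of peaks that overlap IgG could change little. HA of M00001 alone repeats the 11 of both lines. Among genes with ac4729 the counts stayed within 1.5 times, but HA of M00002 was then at 55.9% beside 54.9%. Over all genes it was at 55.3% beside 25.3%. With −log10 q of at least 5, HA of M00001 was at 7 ER genes (18.4% beside 4.37% of other genes), ac647 at 5 (13.2% beside 4.94%), Cbp at 0 (beside 0.269%), p300 at 1 (2.63% beside 1.06%), S5 at 11 (28.9% beside 7.30%), HA of both lines at 7 (18.4% beside 4.09%) and H3K27ac of both antibodies at 5 (13.2% beside 4.35%). With the 2000 strongest peaks of each list, HA of M00002 was at 9 (23.7% beside 2.60%), HA of M00001 at 6 (15.8% beside 3.26%), p65 at 8 (21.1% beside 2.56%), ac4729 at 11 (28.9% beside 5.50%), ac647 at 3 (7.89% beside 1.81%), Cbp at 0 (beside 1.18%), S2 at 15 (39.5% beside 8.11%), S5 at 11 (28.9% beside 5.91%), HA of both lines at 5 (13.2% beside 1.84%) and H3K27ac of both antibodies at 3 (7.89% beside 0.801%). These settings keep fewer peaks. HA of both lines was at 7 of the 11 ER genes with H3K27ac of both antibodies (63.6% beside 37.2% of other such genes), and HA of M00002 alone counts 21. The counts for a 5 kb window, summits and removal of peaks that overlap IgG all stayed within 1.5 times. With Cbp the share of ER genes turned below that of other genes in the 5 kb window (5.26% beside 7.15%) and under both stricter settings. This rests on 2 ER genes in the 5 kb window and 0 under the stricter settings, too few to read a direction. No paired analysis was possible because each target has 1 library per line and no test was made. The limits are unknown read depth, 1 library per target, different targets in the lines and shared promoters.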

Other observations

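The gene interval of Spcs2 runs 11457 bp beyond the start of transcription given in the promoter table, so a window at the ends misses that start. Around it, a place looked at after the values had been seen, HA had folds of 4.48 in M00002 and 3.48 in M00001 (−log10 q 2.58 and 0.750), ac4729 9.17, S2 8.94 and S5 6.20, with no p65, ac647, Cbp, p300 or IgG. An end of Xrra1 lies within 1 kb of it. With starts in place of ends, HA of both lines was at 11 of the 30 ER genes in the promoter table, 36.7% beside 9.42% of other genes.

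The copies of Srp54a were alike in their calls. HA folds were 15.9, 15.5 and 11.8 in M00002 and 4.48, 2.98 and 5.47 in M00001 for Srp54a, Srp54b and Srp54c, in that order.

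The ER stress response element also lay in promoters of 24 genes outside the 38, of which 9 had HA in M00002 and 5 in both lines. The shares beside these counts are 25.3% and 8.97% of all genes outside the 38, or 54.9% and 23.7% of those with ac4729. Among the 63 further pathway genes in the promoter table, 5 held it: Alg12, Creld2, Dnajc3, Ero1b and Syvn1. Over 250 bases before the start, promoters of the 18 ER genes with HA in M00002 had a median GC content of 63.0% (49.2% to 75.6%). The 12 without it by the rule on gene ends, among them Spcs2, had 58.8% (36.8% to 70.4%), so the ranges overlapped. Other genes had 55.6% and were not divided by HA, so a link of GC content to HA was not tested.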
